A study of Mus musculus with 20 samples.

Results

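The genes described here are 40 genes of proliferation and the cell cycle, taken by symbol from the liver and the fat count tables, which together hold 20996 genes. They fall into 7 genes of the G1 phase (cyclins D and E, their kinases and E2f1), 14 genes of S phase and 19 genes of mitosis, and all 40 are in both tables. The 20 RNA-seq libraries form 4 groups of 5: eWAT (epididymal white adipose tissue, the fat pad beside the testis and epididymis) of IR 4A mice, eWAT of WT mice, liver of IR 4A mice and liver of WT mice. All mice were males aged 2 months. The labels name the genotype IR 4A without describing the allele, and the series is about uptake of the insulin receptor into cells with the help of MAD2, a protein best known from the checkpoint that holds dividing cells until their chromosomes are attached to the spindle. The labels give a replicate number and no animal, so p-values measure the spread between libraries.

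Cells that divide pass through G1, copy their DNA in S phase and separate the copies in mitosis. Cyclin D with CDK4 and cyclin E with CDK2 start the cycle and release E2F factors, which switch on the genes of DNA replication. The genes of mitosis are governed by FOXM1, by B-MYB and by the DREAM complex. Hepatocytes and adipocytes of an adult mouse rarely divide, whereas the germ cells of the testis divide throughout adult life by mitosis and meiosis and use many of the same genes.

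Promoters of the replication and the mitosis genes were searched for the motifs of these factors. A 300-base window around the annotated start was held in RefSeq (GRCm38.p6, while the count tables were made on GRCm39) for 30 of the 40 genes. An E2F motif (TTTCCCGC or TTTGGCGC on either strand) was found in 6 of 12 S phase genes, 0 of 14 mitosis genes and 1 of 4 G1 genes, and 1.56% of all 32851 windows hold one. A CHR motif (TTTGAA or TTCGAA on either strand), the element through which DREAM and B-MYB act, was found in 2 of 12 S phase genes, 10 of 14 mitosis genes and 0 of 4 G1 genes, against 19.2% of all windows. The CCAAT box (CCAAT on either strand), where NF-Y binds, was found in 8, 12 and 1 of them in the same order, against 37.4% of all windows. No motif searched contains another, a match is only a match of letters, and binding was not measured here. The promoters of 3 genes of the MCM helicase, which opens the DNA double helix at replication origins, are shown because they had the most E2F matches of the S phase genes, with ties settled by level, and the matches are in capitals.
Mcm6 (GRCm38.p6, chr1:128359656-128359955, minus strand): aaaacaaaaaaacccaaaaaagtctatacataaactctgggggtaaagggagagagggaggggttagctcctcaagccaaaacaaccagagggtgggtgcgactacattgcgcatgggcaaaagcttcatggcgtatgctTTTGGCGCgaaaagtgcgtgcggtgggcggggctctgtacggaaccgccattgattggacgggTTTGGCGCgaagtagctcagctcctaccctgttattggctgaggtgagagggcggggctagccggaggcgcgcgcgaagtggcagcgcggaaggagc
Mcm3 (GRCm38.p6, chr1:20820263-20820562, minus strand): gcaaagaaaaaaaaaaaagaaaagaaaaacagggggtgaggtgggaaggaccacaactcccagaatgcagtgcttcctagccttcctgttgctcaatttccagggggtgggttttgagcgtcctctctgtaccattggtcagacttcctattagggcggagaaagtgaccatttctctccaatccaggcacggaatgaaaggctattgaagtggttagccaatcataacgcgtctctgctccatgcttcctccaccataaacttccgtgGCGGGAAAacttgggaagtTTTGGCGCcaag
Mcm7 (GRCm38.p6, chr5:138171834-138172133, minus strand): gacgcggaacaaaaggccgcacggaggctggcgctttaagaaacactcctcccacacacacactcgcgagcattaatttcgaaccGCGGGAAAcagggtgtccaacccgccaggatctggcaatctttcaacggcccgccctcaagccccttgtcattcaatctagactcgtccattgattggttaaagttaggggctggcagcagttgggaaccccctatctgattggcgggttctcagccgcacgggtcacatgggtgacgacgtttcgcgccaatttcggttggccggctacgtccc
The promoters of Top2a, Mki67 and Cdk1 are shown because they had the most CHR matches of the mitosis genes, with ties settled in the same way, and the matches are in capitals.
Top2a (GRCm38.p6, chr11:99024140-99024439, minus strand): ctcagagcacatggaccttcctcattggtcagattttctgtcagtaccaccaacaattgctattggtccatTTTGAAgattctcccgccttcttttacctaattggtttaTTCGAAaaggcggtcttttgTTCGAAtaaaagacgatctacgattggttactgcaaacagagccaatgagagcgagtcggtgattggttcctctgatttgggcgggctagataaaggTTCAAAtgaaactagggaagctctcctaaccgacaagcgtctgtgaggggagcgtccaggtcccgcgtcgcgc
Mki67 (GRCm38.p6, chr7:135716330-135716629, minus strand): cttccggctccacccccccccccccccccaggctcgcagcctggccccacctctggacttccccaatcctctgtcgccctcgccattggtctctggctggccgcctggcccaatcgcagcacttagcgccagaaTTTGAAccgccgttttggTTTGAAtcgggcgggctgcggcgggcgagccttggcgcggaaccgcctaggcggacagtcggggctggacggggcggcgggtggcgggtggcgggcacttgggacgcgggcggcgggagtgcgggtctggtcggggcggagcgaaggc
Cdk1 (GRCm38.p6, chr10:69352863-69353162, minus strand): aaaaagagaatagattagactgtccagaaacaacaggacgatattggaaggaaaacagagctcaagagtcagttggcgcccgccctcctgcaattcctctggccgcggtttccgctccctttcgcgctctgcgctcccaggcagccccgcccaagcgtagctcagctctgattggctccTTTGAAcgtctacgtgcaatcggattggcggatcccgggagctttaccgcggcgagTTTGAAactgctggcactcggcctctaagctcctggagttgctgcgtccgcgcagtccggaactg

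The eWAT libraries hold RNA of neighbouring organs, and 4 of them hold far more testis RNA than the others. Summed over 25 markers of spermatids, the level was 2697 and 3604 CPM (counts scaled to the library's size with TMM factors) in IR 4A 3 and IR 4A 4 and 2395 and 7384 CPM in WT 1 and WT 2. In the other 6 eWAT libraries it ran from 187 CPM (IR 4A 5) to 891 CPM (WT 3), and in liver the 7 of these markers present in the table summed to at most 0.851 CPM. As the log2 of the summed CPM of spermatid and spermatocyte markers, called the testis level here, the lowest of the 4 was WT 1 at 11.58 and the highest of the other 6 was WT 3 at 10.10. Epididymis markers summed to 6517 CPM in eWAT WT 4 and to between 25345 and 49741 CPM in the other 9 eWAT libraries, and Gpx5, an epididymal enzyme, spanned 10.3 to 17706 CPM. Adipocyte markers were present in every eWAT library, from 2545 CPM in IR 4A 3 to 28424 CPM in WT 4, and hepatocyte markers summed to between 79328 and 106108 CPM in liver. Total counts per library ran from 13651900 to 15530600 in eWAT IR 4A, from 15702800 to 21615400 in eWAT WT, from 18209000 to 24238400 in liver IR 4A and from 17989400 to 21067700 in liver WT, so every eWAT IR 4A library was less deep than every eWAT WT library. In bulk tissue, fewer cells of a type and less RNA per cell cannot be told apart.

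**Figure D1:**
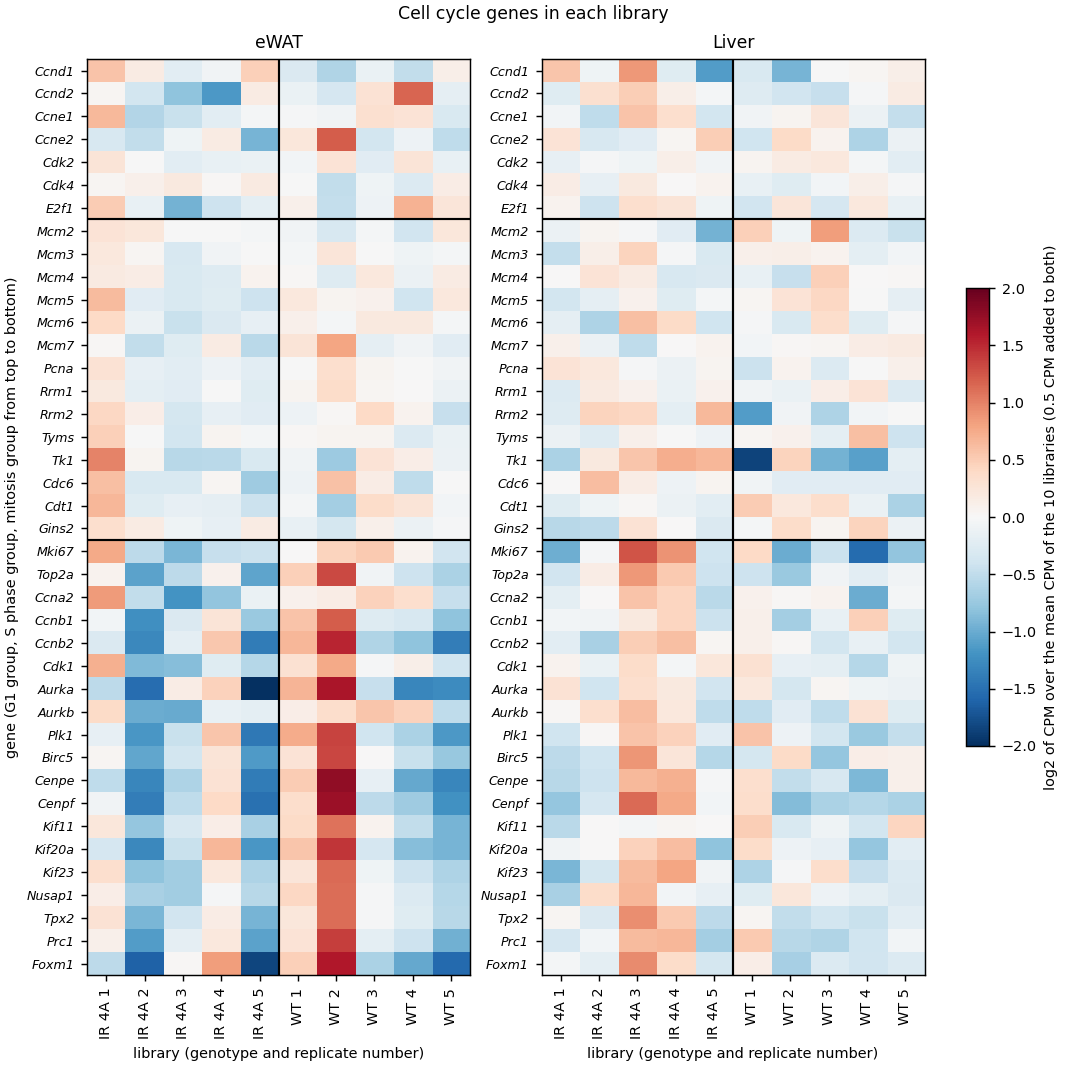
Level of the 40 genes in each library, as the log2 of the CPM over the gene's mean CPM in the 10 libraries of the tissue (0.5 CPM added to both), with eWAT left of liver and IR 4A left of WT within each. Mitosis genes stand out in eWAT WT 2 and in liver IR 4A 3 and IR 4A 4, and S phase genes in eWAT IR 4A 1.

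In fat, many mitosis genes were high in the libraries high in testis RNA. Their summed CPM was 205 and 332 in IR 4A 3 and IR 4A 4 and 375 and 693 in WT 1 and WT 2, the 4 libraries high in testis RNA, against 328, 141 and 147 in IR 4A 1, 2 and 5 and 281, 219 and 162 in WT 3, 4 and 5. The mean of the 4 libraries over the mean of the other 6 had a median of 2.07 over the 19 mitosis genes. It ranged from 0.69 to 4.09 there. It was above 2 for 10 of the 19, and for 2122 of all 16476 genes tested in eWAT. It had a median of 0.92 over the 14 S phase genes, 0.80 over the 7 G1 genes and 0.93 over all 16476 genes tested in eWAT. Because libraries were sorted by testis markers and not by these genes, the ratios describe the libraries, with no test.

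Aurka, the kinase that builds spindle poles, had the highest ratio. It measured 12.2 and 15.3 CPM in IR 4A 3 and IR 4A 4 and 17.9 and 35.0 CPM in WT 1 and WT 2, against 7.54, 3.52 and 2.18 CPM in IR 4A 1, 2 and 5 and 7.83, 4.16 and 4.29 CPM in WT 3, 4 and 5. All 4 libraries lay above the other 6, a ratio of 4.09. Foxm1, which encodes the activator of mitosis genes named above, measured 20.0 and 35.7 CPM in IR 4A 3 and IR 4A 4 and 27.7 and 60.9 CPM in WT 1 and WT 2, against 13.6, 6.07 and 5.15 CPM in IR 4A 1, 2 and 5 and 12.6, 9.50 and 6.38 CPM in WT 3, 4 and 5. It too had no overlap, with a ratio of 4.06. Ccnb2, a B-type cyclin of mitosis (ratio 3.32), and Ccne2, a cyclin E (1.97), were the remaining members without overlap, which makes 3 of 19 mitosis genes and 4 of 40 genes in all, where 15.3% of all genes tested had the 4 libraries above the other 6. The share among the members was below that of all genes. Ratios were also high for Cenpe (3.20) and Cenpf (2.96), which act at the kinetochore, for Kif20a (2.86), a motor of cell separation, and for Plk1 (2.84), a kinase of mitotic entry.

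Among the mitosis genes, Mki67, Ccna2 and Aurkb had lower means in those libraries than in the other 6. Mki67 (ENSMUSG00000031004), the Ki-67 antigen of cycling cells, measured 24.4 and 33.6 CPM in IR 4A 3 and IR 4A 4 and 47.1 and 64.0 CPM in WT 1 and WT 2, against 79.5, 32.2 and 34.4 CPM in IR 4A 1, 2 and 5 and 66.9, 49.0 and 35.5 CPM in WT 3, 4 and 5. The highest library, IR 4A 1, was one of the 6, and the ratio was 0.85. Ccna2, the cyclin A of body cells, had a ratio of 0.69 (8.70 CPM in the 4 libraries and 12.6 CPM in the other 6), Aurkb, the kinase that corrects chromosome attachment, 0.90, and Cdk1, the kinase that drives entry into mitosis, 1.15. Their relatives used in germ cells lay the other way: Ccna1, the cyclin A of male meiosis, averaged 16.3 CPM in the 4 libraries and 1.22 CPM in the other 6, and Aurkc, the Aurora kinase of meiosis, 2.49 and 0.231 CPM. For Ccna1 the range was 4.81 to 31.8 CPM in the 4 libraries and 0.264 to 3.78 CPM in the other 6, so the sets did not overlap. Both relatives are among the spermatocyte markers of the testis level, and were picked for mention after their values were seen. High values in the 4 libraries were thus favoured by the sorting itself and are no separate result. In the wider list of 56 other mitosis genes the median ratio was 1.54 and 17 genes had all 4 libraries above the other 6. In 38 other replication genes the median was 1.25 with 7 such genes. Over all genes tested the median was 0.93 and 15.3% were such genes. The share in the wider mitosis list was above that of all genes, and the share in the replication list was nearer to it.

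**Figure D2:**
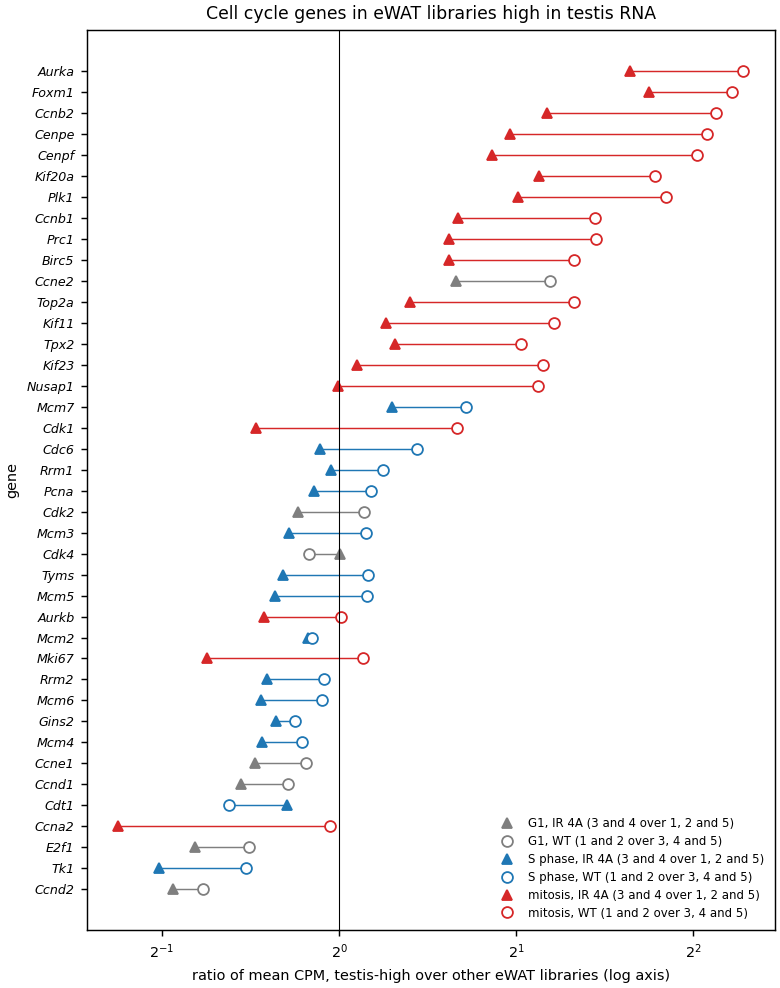
Ratio of the mean CPM in the eWAT libraries high in testis RNA to the mean of the other eWAT libraries, for each of the 40 genes, computed within IR 4A (triangles) and within WT (open circles) on a log axis. The ratio was above 1 for 14 of 19 mitosis genes in IR 4A and 18 of 19 in WT, and for 1 and 7 of the 14 S phase genes. The share of all genes above 1 within a genotype was not computed.

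Another library, eWAT IR 4A 1, was high for S phase genes. In eWAT IR 4A 1, 9 of the 14 S phase genes had their highest value of the 10 eWAT libraries, where 6.91% of all genes tested did. The summed S phase level was 299 CPM, against 203 to 230 CPM in the other 4 IR 4A libraries and 231 to 282 CPM in the WT libraries. Mki67 (79.5 CPM) and Ccna2 (20.4 CPM) were also highest there. Tk1, the thymidine kinase of S phase, measured 9.50 CPM in IR 4A 1. It measured between 2.91 and 4.69 CPM in the other 4 IR 4A libraries and between 2.53 and 5.59 CPM in WT. Spermatid markers in IR 4A 1 summed to 404 CPM, and B cell markers to 136 CPM (22.3 to 107 CPM in the other 4 IR 4A libraries). Macrophage markers summed to 401 CPM (165 to 407 CPM in the other 4 IR 4A libraries). In the WT libraries B cell markers summed to between 66.7 and 205 CPM and macrophage markers to between 489 and 1465 CPM. The part of these markers in the result was not tested. Of the 19 mitosis genes 16 had their highest value in eWAT WT 2, the library with the most testis RNA, where 27.4% of all genes tested did.

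**Figure D3:**
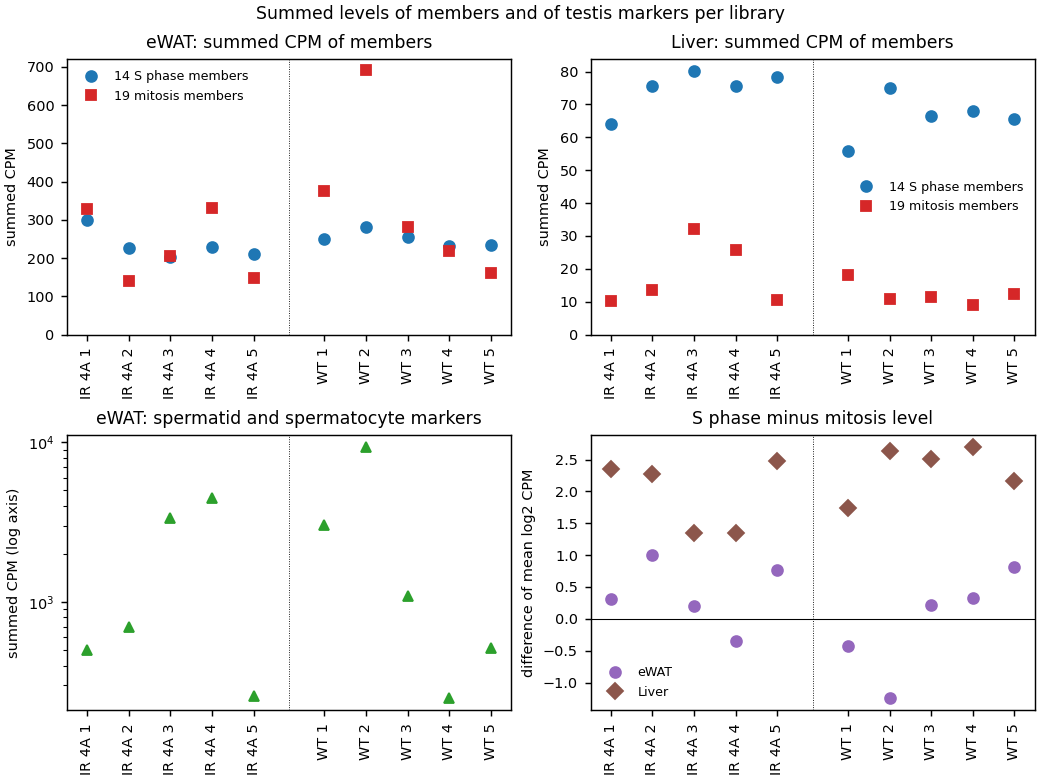
Summed CPM of the 14 S phase and 19 mitosis genes per library in eWAT and liver (top), summed CPM of spermatid and spermatocyte markers in eWAT on a log axis (bottom left) and the S phase minus mitosis level per library (bottom right), IR 4A left of WT. The mitosis sum reaches 693 CPM in eWAT WT 2 and 32.1 CPM in liver IR 4A 3, while the S phase sum spans 203 to 299 CPM in eWAT and 55.8 to 80.2 CPM in liver.

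In liver no cell cycle gene passed the test between IR 4A and WT, and the values of the mitosis genes were set apart in 2 of the IR 4A libraries. None of the 28 members that could be tested passed edgeR's quasi-likelihood test with Benjamini-Hochberg adjustment at 0.05, where 0.00805% of 12421 genes did. DESeq2 and voom with sample weights called none either (DESeq2 called 4.11% of the 10971 genes to which it gave an adjusted p). DESeq2 gave none to Top2a, Cdk1, Ccna2, Ccnb2, Prc1, Kif20a, Kif11, Mcm5 and Ccne2, so it could not call them. At an unadjusted p under 0.05 there were 2 members, Tk1 and Rrm2, both higher in IR 4A, where 18.1% of all genes passed in either direction and 8.6% were higher. No member had groups that did not overlap (3.54% of all genes). The other 12 members, Cdc6 and Gins2 of S phase and 10 of mitosis, were below the filter on low counts, with 18 to 130 counts over the 10 libraries.

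Tk1 measured 7.89, 14.4, 18.6, 21.2 and 20.2 CPM in the 5 IR 4A livers, against 3.12, 17.3, 6.29, 5.65 and 10.9 CPM in the 5 WT livers. WT 2 lay among the higher IR 4A libraries and the groups overlapped. The fitted log2 difference was 0.94 (SE 0.39, adjusted p = 0.242 by edgeR). Rrm2, the regulated subunit of the reductase that makes deoxynucleotides, measured 4.15, 7.04, 6.84, 4.33 and 8.16 CPM in IR 4A livers, against 2.04, 4.80, 3.12, 4.85 and 5.03 CPM in WT livers. Of the IR 4A livers 3 lay above every WT liver and 2 did not, with a log2 fold change of 0.63 (SE 0.27, adjusted p = 0.247 by edgeR). The rest of the S phase genes had no common direction: the median log2 fold change of the 12 tested was -0.01, Mcm2, an MCM subunit, had -0.46 (SE 0.32) and Pcna, the sliding clamp of the DNA polymerases, had 0.20 (SE 0.12).

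Mcm2 in liver measured 2.23, 2.60, 2.42, 2.05 and 1.05 CPM in IR 4A, against 3.63, 2.29, 4.83, 1.97 and 1.69 CPM in WT. For Mcm2 the log2 fold change was -0.46 (SE 0.32, adjusted p = 0.467). WT 1 and WT 3 held the highest values. Mcm6, another subunit of the helicase, measured 2.59, 1.8, 4.83, 4.05 and 2.16 CPM in IR 4A, against 2.95, 2.34, 3.97, 2.46 and 2.94 CPM in WT. For Mcm6 the log2 fold change was 0.10 (SE 0.28, adjusted p = 0.886). IR 4A 3 and IR 4A 4 were highest and IR 4A 2 lowest. Pcna measured 17.6, 16.9, 14.4, 13.4 and 15.2 CPM in IR 4A, against 10.7, 15.3, 11.9, 14.5 and 15.6 CPM in WT, with WT libraries on both sides of several IR 4A libraries. For Pcna the log2 fold change was 0.20 (SE 0.12, adjusted p = 0.401). Tyms, the thymidylate synthase, measured 5.44, 4.90, 6.43, 5.92 and 5.48 CPM in IR 4A, against 6.12, 6.31, 5.13, 9.28 and 4.33 CPM in WT, with the highest value in WT 4. For Tyms the log2 fold change was -0.12 (SE 0.19, adjusted p = 0.760).

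The mitosis genes of liver were high in 2 of the 5 IR 4A livers. Their summed CPM was 10.1, 13.6, 32.1, 25.8 and 10.5 in IR 4A livers 1 to 5, against 18.3, 10.9, 11.3, 8.97 and 12.4 in WT livers 1 to 5. IR 4A 3 and IR 4A 4 were the highest libraries and the other 3 IR 4A livers lay within the range of the WT livers. For 12 of 19 mitosis genes the highest library was IR 4A 3, which held for 9.15% of all genes tested. For 11 of 19 the highest pair was IR 4A 3 with IR 4A 4, which held for 5.70%. Of these 19 genes 10 were below the filter on low counts, while both shares cover only genes above it. The 2 libraries were picked for their mitosis values, so these counts are no test.

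Mki67 measured 1.25, 2.90, 7.74, 5.87 and 2.11 CPM in IR 4A livers, against 4.03, 1.23, 2.06, 0.676 and 1.49 CPM in WT livers. Its log2 fold change was 1.09 (SE 0.52, adjusted p = 0.294 by edgeR), and 0.13 (SE 0.50, adjusted p = 0.955) without IR 4A 3 and IR 4A 4. Top2a, the topoisomerase that untangles sister chromosomes, measured 0.714, 1.25, 2.38, 1.77 and 0.684 CPM in IR 4A livers, against 0.680, 0.447, 1.01, 0.860 and 0.996 CPM in WT livers, again with IR 4A 3 and IR 4A 4 on top (0.79, SE 0.38, adjusted p = 0.297). Cdk1 measured 0.937, 0.749, 1.26, 0.839 and 1.11 CPM in IR 4A, against 1.19, 0.726, 0.704, 0.430 and 0.797 CPM in WT, and WT 1 lay between the 2 highest IR 4A livers. For Cdk1 the log2 fold change was 0.36 (SE 0.28, adjusted p = 0.521). Foxm1 and Ccnb1 were below the filter and not tested. Foxm1 measured 0.446, 0.350, 1.38, 0.746 and 0.263 CPM in IR 4A, against 0.567, 0.112, 0.302, 0.246 and 0.299 CPM in WT. Ccnb1, cyclin B1, measured 0.357, 0.350, 0.521, 0.699 and 0.158 CPM in IR 4A, against 0.454, 0.0558, 0.302, 0.737 and 0.249 CPM in WT. IR 4A 3 was highest for Foxm1 and WT 4 for Ccnb1. Over the 19 mitosis genes, filtered or not, mean CPM was higher in IR 4A livers for 18, against 50.2% of the 15608 genes in the table, and without IR 4A 3 and IR 4A 4 it was higher for 8 of 19, against 48.5%. Those libraries were picked for their high mitosis values, so leaving them out was set to lower this count and the change of Mki67. Neither fall is a test. Total counts of IR 4A 3 and IR 4A 4 were 24238400 and 19922900, and their macrophage markers (252 and 270 CPM) lay within the range of the other 3 IR 4A livers (175 to 312 CPM). Summed adipose progenitor markers did not overlap between genotypes in liver (212 to 265 CPM in IR 4A and 175 to 209 CPM in WT), with 265 and 264 CPM in IR 4A 3 and IR 4A 4. That sum was mostly Dpp4 and Dcn (means of 118 and 77.4 CPM over the liver libraries), so it mainly reports those genes. The mean log2 CPM of the same list overlapped between genotypes (2.33 to 2.88 in IR 4A and 1.84 to 2.75 in WT). Summed B cell markers were 9.11 to 16.3 CPM in IR 4A livers and 4.82 to 10.3 CPM in WT livers. Their part in the members' values was not tested.

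The authors' deposited table for liver gave 1 member an adjusted p under 0.05, Cenpf, with a log2 fold change of 2.97 and an adjusted p of 0.0310, among 27 members with an adjusted p. The counts of Cenpf in the liver count table were 2, 6, 46, 26 and 9 in IR 4A livers, against 14, 1, 3, 3 and 3 in WT livers, too few to pass the filter used here. The authors' deposited table does not correspond to these counts for every gene: its mean signal for Cenpf was 16.2, where the 10 libraries hold 113 counts in all, and its log2 fold change for Top2a was -0.25, against 0.79 in the fit made here. IR 4A 3 and IR 4A 4 held most of the Cenpf counts, and WT 1 exceeded 3 of the 5 IR 4A libraries. The lowest adjusted p of a member in the authors' deposited table for eWAT was 0.175, for Ccnd1. Cdc6, which loads the MCM helicase onto origins, had 17 counts over the 5 IR 4A livers and 1 count over the 5 WT livers, a ratio of 16.0 with a 95% counting interval of 2.51 to 671, which covers counting error only; 8 of the 17 came from 1 library.

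Of the G1 genes of liver none passed the test. Ccnd1 (ENSMUSG00000070348), cyclin D1, which responds to growth signals, measured 47.1, 30.2, 58.9, 27.0 and 14.4 CPM in IR 4A livers, against 25.7, 16.6, 31.8, 33.0 and 34.8 CPM in WT livers, with the IR 4A livers on both sides of the WT range (0.34, SE 0.32, adjusted p = 0.601). Ccnd2, cyclin D2, measured 2.94, 4.60, 5.21, 3.92 and 3.47 CPM in IR 4A, against 2.89, 2.62, 2.47, 3.50 and 4.08 CPM in WT, with IR 4A 2 and IR 4A 3 above every WT liver. For Ccnd2 the log2 fold change was 0.39 (SE 0.20, adjusted p = 0.322). Cdk4, the kinase of the D cyclins, had 0.14 (SE 0.10). E2f1, the activator of replication genes, measured 2.27, 1.5, 2.86, 2.66 and 2.00 CPM in IR 4A, against 1.53, 2.62, 1.61, 2.58 and 1.89 CPM in WT, and its groups overlapped over most of their range. For E2f1 the log2 fold change was 0.17 (SE 0.23, adjusted p = 0.742).

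In eWAT all 19 mitosis genes had a lower mean in IR 4A than in WT, and none of the 40 members passed the test. By edgeR 0 of 40 were called, where 0.0121% of 16476 genes were, and DESeq2 and voom called none either (DESeq2 called 7.31% of all genes). At an unadjusted p under 0.05 there was 1 member, Ccnd1, higher in IR 4A, where 15.9% of all genes passed and 6.63% were higher, and no member had groups that did not overlap (5.05% of all genes). The median log2 fold change was -0.63 over mitosis genes, -0.05 over S phase genes and -0.13 over G1 genes, against -0.08 over all genes tested. The mitosis median ran from -0.86 to -0.13 with each library left out, and the value of -0.13 was that without WT 2. Of the 20738 genes in the table, 38.4% had a higher mean in IR 4A. All 19 mitosis genes were also negative under RLE and upper-quartile scaling.

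Without the 4 libraries high in testis RNA, which leaves 3 libraries a genotype, the mitosis median was -0.13, with 4 genes positive and 15 negative, the S phase median was 0.09 and the median of all genes was 0.01. No gene of 15948 was called then by edgeR (0%), and 1 member, Ccnd1, was higher at an unadjusted p under 0.05, where 8.36% of all genes passed and 2.87% were higher. With the testis level as a term in the fit of all 10 libraries the mitosis median was -0.37, with 0 genes positive and 19 negative. The testis level itself was 10.05 ± 1.79 in IR 4A and 10.37 ± 2.06 in WT (log2 of summed CPM, SD, n = 5 each), a difference of -0.32 with p = 0.786 in a two-sided exact permutation test over 252 splits.

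Top2a measured 33.4, 14.8, 21.9, 33.8 and 15.1 CPM in the 5 IR 4A eWAT libraries, against 44.7, 79.8, 30.3, 23.8 and 20.3 CPM in the 5 WT libraries. Both WT libraries above 40 CPM were among the 4 high in testis RNA. Its log2 fold change was -0.75 (SE 0.43, adjusted p = 0.410 by edgeR), and -0.23 (SE 0.36) without those 4. Nusap1, which bundles spindle microtubules, measured 10.7, 6.01, 5.75, 9.54 and 6.41 CPM in IR 4A, against 13.0, 21.4, 9.48, 7.92 and 6.32 CPM in WT, and its log2 fold change was -0.62 (SE 0.36, adjusted p = 0.422), and -0.04 (SE 0.29) without the 4. Ccnb1, cyclin B1, the partner of CDK1, measured 6.16, 2.48, 5.21, 7.84 and 3.63 CPM in IR 4A, against 9.77, 15.5, 5.33, 5.08 and 3.50 CPM in WT, with WT 2 highest, and had -0.17 without the 4. For Ccnb1 the log2 fold change was -0.64 (SE 0.46, adjusted p = 0.516). Cdk1 measured 14.7, 4.56, 4.67, 7.36 and 5.75 CPM in IR 4A, against 11, 15.3, 8.63, 9.60 and 6.56 CPM in WT. For Cdk1 the log2 fold change was -0.48 (SE 0.37, adjusted p = 0.548). WT 2 and IR 4A 1 were highest for it, and without the 4 libraries it had 0.02 (SE 0.46). Mki67, whose ratio was below 1, had -0.38 (SE 0.32, adjusted p = 0.587), and -0.05 (SE 0.41) without the 4. Foxm1 had -0.55 (SE 0.73) with all libraries and 0.26 without WT 2 alone.

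**Figure D4:**
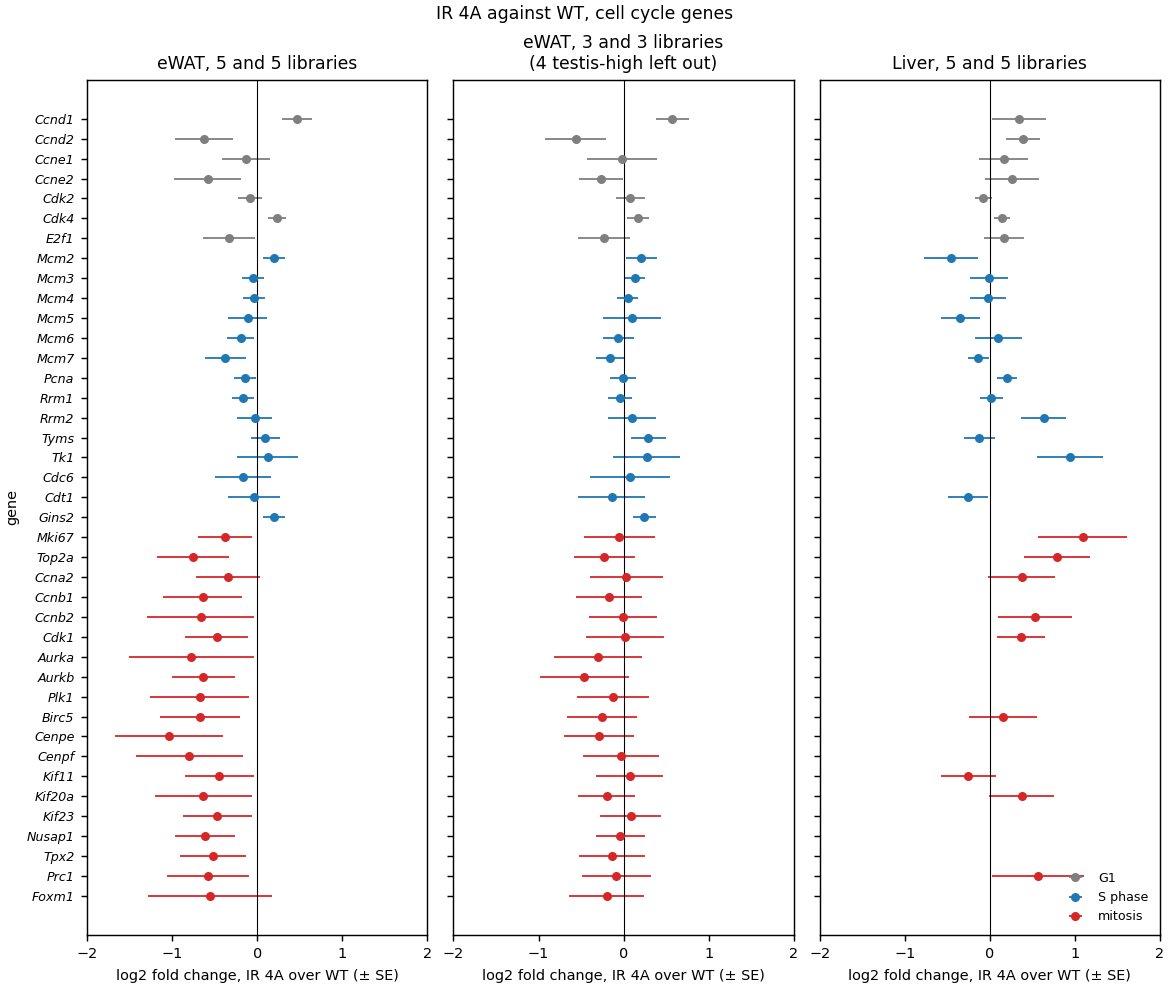
Log2 fold change of IR 4A over WT with its standard error for each of the 40 genes, in eWAT with 10 libraries, in eWAT with 6 libraries and in liver with 10. Mitosis genes (red) lie below 0 in eWAT with 10 libraries (median -0.63) and nearer 0 with 6 (median -0.13); the 12 genes with no point in liver were below the filter.

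Ccnd1 was the G1 gene that differed most by its own error in eWAT. It measured 167, 126, 97.5, 107 and 157 CPM in IR 4A, against 92.3, 74.2, 103, 79.9 and 122 CPM in WT. The highest 3 values were of IR 4A and the lowest 3 of WT, with overlap between. The log2 fold change was 0.47 (SE 0.18, adjusted p = 0.257 by edgeR). Without the 4 libraries the values were 167, 126 and 157 CPM in IR 4A, against 103, 79.9 and 122 CPM in WT, which did not overlap (0.57, SE 0.19, adjusted p = 0.590). Gins2, a subunit of the replicative helicase, was the other member with no overlap there (0.25, SE 0.14, adjusted p = 0.603), so 2 of 40 members did not overlap, both higher in IR 4A, where 18% of all genes did not and 9.03% were higher. Cdk4 measured 81.3, 85.2, 90.8, 80.7 and 90.1 CPM in IR 4A, against 78.9, 56.4, 74.9, 65.6 and 88.2 CPM in WT (0.23, SE 0.11, adjusted p = 0.335).

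Ccnd2 (ENSMUSG00000000184) lay the other way. It measured 119, 89.3, 65.9, 51.8 and 129 CPM in IR 4A eWAT, against 106, 91.9, 141, 261 and 102 CPM in WT eWAT. The lowest values were of IR 4A 3 and IR 4A 4 and the highest of WT 4. The log2 fold change was -0.63 (SE 0.34, adjusted p = 0.391 by edgeR), -0.28 (SE 0.27, adjusted p = 0.677) without WT 4, and -0.08 (adjusted p = 0.916) with the epididymis level as a term, a term added after the data were seen. With the testis level as a term it was -0.71 (SE 0.18) and was called (adjusted p = 0.0416), the only member called in that fit, in which 8.73% of all genes were called and 7.73% were lower. WT 4 also had the highest adipocyte sum (28424 CPM) and the highest macrophage sum of the eWAT libraries (1465 CPM), and IR 4A 3 and IR 4A 4 the lowest of both (2545 and 3792 CPM, and 165 and 218 CPM). Over the 5 libraries each, the sum of 12 macrophage markers was 165 to 407 CPM in IR 4A and 489 to 1465 CPM in WT, and that of 10 adipose progenitor markers 655 to 1365 CPM in IR 4A and 1530 to 3347 CPM in WT. Neither sum overlapped between genotypes, while the mean log2 CPM of the progenitor list did (5.02 to 5.98 in IR 4A and 5.86 to 6.70 in WT). By edgeR 11 of the 12 macrophage markers and 5 of the 10 progenitor markers were lower at an unadjusted p under 0.05. The remaining macrophage marker was higher at that level (log2 fold change 1.55). Of all genes 9.24% were lower and 6.63% higher at that level. None of these markers was called without the covariate. In the fit with the testis level as a term, 11 of the 12 macrophage markers, 5 of the 10 progenitor markers and 6 of 10 each of the adipocyte, endothelial and mesothelial markers were called lower. Their part in the members' values was not tested.

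The S phase genes of eWAT had small differences. Of the 14, 10 had a negative and 4 a positive log2 fold change, from -0.37 (Mcm7) to 0.20 (Gins2), and under upper-quartile scaling, which moved the median of all genes to 0.01, 6 were negative and the median was 0.03. Pcna measured 52.5, 38.1, 36.9, 40.1 and 36.9 CPM in IR 4A, against 42.6, 54.2, 44.9, 42.6 and 41.0 CPM in WT. For Pcna the log2 fold change was -0.15 (SE 0.13, adjusted p = 0.600). IR 4A 1 and WT 2 were highest. Mcm6 measured 22.9, 15.9, 12.6, 14 and 15.4 CPM in IR 4A, against 18.6, 16.8, 19.9, 20.0 and 16.9 CPM in WT. For Mcm6 the log2 fold change was -0.20 (SE 0.16, adjusted p = 0.560). Mcm2 measured 25.2, 24.4, 20.6, 20.6 and 20.2 CPM in IR 4A, against 19.8, 16.5, 20.3, 15.7 and 24.4 CPM in WT. For Mcm2 the log2 fold change was 0.19 (SE 0.13, adjusted p = 0.492). The groups overlapped for both. Rrm2 measured 13.0, 10.6, 7.44, 8.48 and 8.13 CPM in IR 4A, against 8.91, 9.76, 12.8, 10.1 and 6.87 CPM in WT, with IR 4A 1 and WT 3 highest. For Rrm2 the log2 fold change was -0.03 (SE 0.21, adjusted p = 0.948). Gins2 measured 14.1, 12.4, 10.4, 9.84 and 12.4 CPM in IR 4A, against 9.97, 8.55, 11.9, 10.1 and 10.9 CPM in WT. For Gins2 the log2 fold change was 0.20 (SE 0.13, adjusted p = 0.488). Tyms measured 13.7, 9.73, 7.44, 10.2 and 9.45 CPM in IR 4A, against 9.92, 10.2, 10.1, 8.02 and 8.83 CPM in WT. For Tyms the log2 fold change was 0.09 (SE 0.17, adjusted p = 0.790). IR 4A 1 was highest for both, and no group stood clear of the other. Tk1 had 0.12 (SE 0.36), and -0.29 without IR 4A 1, its highest library. E2f1 measured 9.93, 6.14, 3.32, 5.01 and 5.88 CPM in IR 4A, against 7.41, 4.75, 6.34, 11.4 and 8.22 CPM in WT, with its highest value in WT 4. For E2f1 the log2 fold change was -0.34 (SE 0.31, adjusted p = 0.618).

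The other genes of the pathway gave no call in either tissue. In liver, of 30 replication genes tested beside the members 3 were higher and 2 lower at an unadjusted p under 0.05, of 24 mitosis genes 4 were higher, of 22 brakes of the cycle 5 were higher, and of 11 further G1 genes 2 were higher and 2 lower. Over all genes tested in liver 8.6% were higher and 9.48% lower at that level. The members of those lists with the smallest p in liver were Btg2, an antiproliferative gene (16.6 ± 2.81 CPM in IR 4A and 9.30 ± 2.63 CPM in WT, SD, n = 5 each, log2 fold change 0.85, SE 0.18, edgeR adjusted p = 0.109), Cdc25b, a phosphatase that activates CDK1 (0.840 ± 0.255 and 0.367 ± 0.109 CPM, 1.19, SE 0.32, adjusted p = 0.136), Spc24, a kinetochore subunit (0.72, SE 0.19, adjusted p = 0.139), and Myc, a growth transcription factor (21.6 ± 13.2 and 7.41 ± 2.76 CPM, 1.56, SE 0.44, adjusted p = 0.143). In eWAT 1 of 38 replication genes, 1 of 56 mitosis genes and 1 of 24 brakes were lower at that level, and none of 13 further G1 genes passed, where 6.63% of all genes were higher and 9.24% lower. The 3 genes were Pola2, a subunit of the polymerase that primes DNA (18.2 ± 4.14 CPM in IR 4A and 26.6 ± 5.21 CPM in WT, -0.56, SE 0.18, adjusted p = 0.233), Anln, a scaffold of the cleavage furrow (-0.80, SE 0.27, adjusted p = 0.239), and Lin54, the DREAM subunit that binds the CHR motif (-0.37, SE 0.13, adjusted p = 0.242).

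Whether the genotype change differed between the tissues was tested as eWAT minus liver in 1 fit of all 20 libraries. No member was called by edgeR, where 2.41% of 14696 genes were, and 7 members were lower at an unadjusted p under 0.05, where 14.6% of all genes were lower. All 19 mitosis genes were negative, with a median of -1.18 against -0.12 over all genes. Of these 19, 10 were below the filter in liver alone and entered this fit through their eWAT counts. Without the 4 libraries high in testis RNA 18 of 19 were negative, the median was -0.58 against -0.03, and 2 members were lower at an unadjusted p under 0.05, where 10.8% of all genes were. No member was called then, where 0.157% of all genes were. Top2a had -1.57 (SE 0.61, adjusted p = 0.141), Ccnd2 -1.03 (SE 0.40, adjusted p = 0.139) and Mki67 -1.50 (SE 0.65, adjusted p = 0.186). Cdc6 had -3.62 (SE 0.98, adjusted p = 0.0547), a value that depends on the prior count because WT livers held 1 count, and it was called by DESeq2, by voom and without liver IR 4A 1, eWAT WT 5 or eWAT IR 4A 1.

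Between the tissues, most of the 40 genes were higher in eWAT, and the mitosis genes had the highest median of the 3 lists. In eWAT WT over liver WT 33 members were higher and 3 lower by edgeR at an adjusted p of 0.05, where 77.1% of 14696 genes were called, 43.2% higher and 33.9% lower. The mitosis genes were higher in eWAT for 19 of 19, with a median log2 fold change of 3.73, the S phase genes for 10 of 14 with 3 lower and a median of 1.16, and the G1 genes for 4 of 7 with a median of 0.58, against 0.19 over all genes. The 12 members below the liver filter, 10 of mitosis and 2 of S phase, entered this fit through their eWAT counts. For those 12 a higher level in eWAT was favoured by the filter itself. The size of every tissue difference depends on the scaling: the joint TMM factors were 1.48 to 1.81 in eWAT and 0.548 to 0.647 in liver. Scaled to total counts alone, an alternative chosen after seeing the data, the median of all genes was 1.69, so that the medians stood at 5.19 for mitosis, 2.66 for S phase and 2.06 for G1 genes, with 38 members higher and 0 lower. All 19 mitosis genes were called higher under TMM, RLE, upper-quartile and total-count scaling. Without the testis-rich eWAT libraries, which leaves WT 3, 4 and 5, 30 were higher and 3 lower (75.8% of all genes called, 38% higher and 37.8% lower), and the mitosis median was 3.20 with 18 of 19 called; Birc5, an inhibitor of cell death that acts with Aurora B, was the one not called (0.56, adjusted p = 0.258).

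Cenpf had one of the highest fold changes between tissues, and like Foxm1 and Cdc6 it entered the fit through its eWAT counts. With the joint scaling it measured 15.7, 41.5, 8.19, 6.93 and 4.91 CPM in the 5 eWAT WT libraries, against 1.30, 0.0910, 0.249, 0.299 and 0.248 CPM in the 5 liver WT libraries, with no overlap. The log2 fold change was 5.13 (SE 0.83, adjusted p = 1.64e-05 by edgeR), and 3.82 (adjusted p = 0.000158) without WT 1 and WT 2. Foxm1 had 4.96 (SE 0.78, adjusted p = 1.17e-05), and 3.49 without them. Mki67, by contrast, had 3.47 (SE 0.50, adjusted p = 3.48e-06), and 3.27 (adjusted p = 4.12e-05) without them. Cdc6 had 286 counts over the 5 eWAT WT libraries and 1 count over the 5 liver WT libraries, a ratio scaled to total counts of 301 with a 95% counting interval of 53.5 to 11919. Ccnd2 was the G1 gene furthest apart, at 4.16 (SE 0.31, adjusted p = 4.21e-10).

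Tk1, Cdt1 and Tyms were the 3 members called lower in eWAT, a call that depends on the scaling. With the joint scaling Tk1 measured 2.87, 1.74, 3.68, 3.19 and 2.68 CPM in eWAT WT, against 5.12, 28.2, 10.4, 9.16 and 18 CPM in liver WT, with no overlap. For Tk1 between tissues the log2 fold change was -2.32 (SE 0.42, adjusted p = 5.24e-05), and -0.84 (adjusted p = 0.0572) with total-count scaling. Tyms measured 6.65, 6.99, 6.65, 5.09 and 5.75 CPM in eWAT WT, against 10.1, 10.3, 8.45, 15 and 7.19 CPM in liver WT, again with no overlap. It had -0.71 (SE 0.18, adjusted p = 0.00143), and 0.80 (adjusted p = 0.000428) with total-count scaling, so its direction turned. Cdt1, which loads the MCM helicase together with CDC6, had -1.30 (SE 0.27, adjusted p = 0.000275), and 0.19 (adjusted p = 0.506) with total-count scaling. Rrm2 had -0.03 (SE 0.25, adjusted p = 0.926), and 1.47 (adjusted p = 2.54e-05) with total-count scaling. The CPM values given for the genotype comparisons are scaled within each tissue and cannot be set against each other between tissues.

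**Figure D5:**
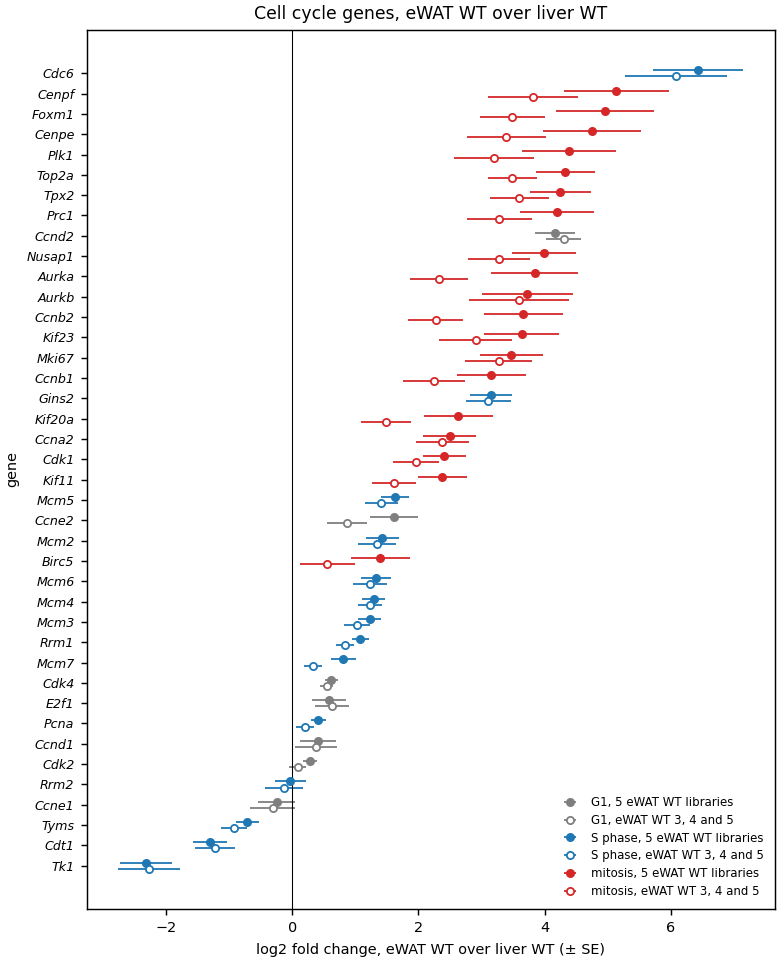
Log2 fold change of eWAT WT over liver WT with its standard error for each gene, with all 5 eWAT WT libraries (filled) and with WT 3, 4 and 5 (open). The mitosis genes have a median of 3.73 with all libraries and 3.20 without the testis-rich ones, and Tk1, Cdt1 and Tyms lie below 0 in both with this TMM scaling, while Cdt1 and Tyms are above 0 with total-count scaling.

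S phase and mitosis genes were set against each other in each library as the difference of their mean log2 CPM. CPM are not per gene length, so this value can be read only between libraries. It was 0.39 ± 0.53 in eWAT IR 4A, -0.06 ± 0.79 in eWAT WT, 1.96 ± 0.56 in liver IR 4A and 2.35 ± 0.40 in liver WT (SD, n = 5 each). The lowest value of all was -1.24, in eWAT WT 2, and in liver the lowest were 1.35 in both IR 4A 3 and IR 4A 4. Without the 4 libraries high in testis RNA it was 0.70 ± 0.35 in eWAT IR 4A and 0.46 ± 0.32 in eWAT WT (SD, n = 3 each), and every eWAT library lay below every liver library.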

How the data were processed

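Libraries were stranded, from poly-A RNA, with paired reads, per the labels' protocols. The authors deposited whole-number tables of estimated counts for each gene. The submitters' processing notes name the tools Salmon 1.8.0 and DESeq2 1.32.0, and the build GRCm39. The authors' deposited DESeq2 tables hold a mean signal (counts after size factors), a log2 fold change and its error, and a p-value, raw and adjusted. Columns named Ctl were read as WT.

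After removal of repeated identifiers (83 in liver and 208 in eWAT), 15608 and 20738 genes stayed. No group held a duplicate library (chi-square per degree of freedom at least 12.5). edgeR 4.0.16 (R 4.3.3) was used with filterByExpr (minimum count 10, minimum total 15) and TMM. Its quasi-likelihood test was two-sided, and p-values were adjusted over all genes by the Benjamini-Hochberg method, at 0.05. The steps were checked on simulated data, in which only genes with a mean count of at least 20 were given a change. Of genes given a log2 change of 1, 79% were called in liver and 33.0% in eWAT. For a log2 change of 2 it was 99% and 68%, and 4 unchanged genes were called in each tissue. A change of 1 would thus often be missed in eWAT. In liver the tested mitosis genes Ccnb2, Prc1, Cdk1 and Kif11 had 124, 135, 180 and 188 counts over the 10 libraries. These genes and those below the filter lie under that mean count, so the shares called in liver do not cover them. The fits were IR 4A over WT in each tissue, and the tissue difference of that change and eWAT WT over liver WT in a joint fit of 20 libraries. Levels of a list are mean log2 CPM with a prior count of 2. Intervals cover counting error only.

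The members, the lists and the 4 libraries high in testis RNA were chosen with earlier results of these data known. Members named were 12 set by name, the 5 with the smallest p in liver, in eWAT and in eWAT without the 4 libraries, the 3 with the smallest p for the tissue difference, and the 3 highest and 3 lowest between tissues. Of each of 4 pathway lists the 3 genes with the smallest p per tissue were eligible, and not all are described. Other members named for their testis ratio were chosen after their values were seen. Alternatives covered the scaling (RLE, upper quartile and, between tissues, total counts), the filter on low counts (none, or 1 CPM in 5 libraries), an adjusted p of 0.1, DESeq2 1.42.0, voom from limma 3.58.1 with sample weights, the replicate number as a block, other prior counts, libraries left out, and the testis or epididymis level as a covariate.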

Additional observations from a re-analysis of the deposited data

Results flagged for a closer look

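Of 92 groups of 5 libraries checked, 10 held a library whose gap to the nearest other exceeded the 95% limit of Dixon's test. For independent, normally spread values 4.6 would be flagged. The genes share libraries and are not independent, so setting 10 against 4.6 is no test. In eWAT IR 4A, replicate 1 was the highest for Mki67 at 79.5 CPM (24.4 to 34.4 CPM in the other 4), for Cdk1 at 14.7 CPM (4.56 to 7.36), for Pcna at 52.5 CPM (36.9 to 40.1), for Tk1 at 9.50 CPM (2.91 to 4.69), for Cdt1 at 4.93 CPM (2.05 to 2.57) and for the summed S phase genes at 299 CPM (203 to 230). In liver IR 4A, Cdc6 stood highest in replicate 2 at 0.400 CPM (0.0466 to 0.149 in the other 4), and the summed S phase genes lowest in replicate 1 at 64.0 CPM (75.6 to 80.2). In liver WT, replicate 1 was the highest for Cdc6 at 0.0567 CPM, which is 1 count, the other 4 being at 0. It was also the highest for Cenpf at 0.794 CPM (0.0558 to 0.184).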

How the results depend on the processing

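No member was called in liver under any alternative run, and in eWAT 1 was, Ccnd2 with the testis level as a covariate. The tissue difference of the genotype change had 1 member called, Cdc6, at an adjusted p of 0.1, by DESeq2 and by voom, and 0 to 1 when each library was left out. Over all genes in liver, 1 was called, against 18 at an adjusted p of 0.1, 451 by DESeq2, 4 by voom, 3 with the replicate block, 0 without liver WT 1 and WT 3 (libraries high in acute phase genes), 0 without IR 4A 3 and IR 4A 4, and 0 to 143 with each library left out (143 without IR 4A 1). In eWAT 2 were called, against 1 under upper-quartile scaling, 0 with no filter, 1 with the stricter filter, 1204 by DESeq2, 78 by voom, 0 with the replicate block, 0 without the 4 libraries high in testis RNA, 1439 with the testis covariate, 0 with the epididymis covariate, and 0 to 6 with each library left out (6 without IR 4A 3).

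Same-number correlations between genotypes ran from -0.73 to 0.67 in eWAT and from -0.07 to 0.08 in liver. Between eWAT and liver they ran from -0.16 to 0.07 in IR 4A and from -0.09 to 0.03 in WT. Such values cannot settle whether an animal gave both tissues, because the labels name no animal. With the replicate block 0 members were called in liver, 0 in eWAT, 0 for the tissue difference and 35 between tissues.

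Signs turned for these uncalled members. In liver, Mcm2, E2f1 and Cdt1 were 0.081, -0.045 and 0.049 without WT 1 and WT 3, Mcm6 and E2f1 were -0.42 and -0.081 without IR 4A 3 and IR 4A 4, and with each library left out Mcm6 ran from -0.14 to 0.24 and Tyms from -0.23 to 0.064. In eWAT, Rrm2 and Cdt1 were 0.053 and 0.031 under upper-quartile scaling and 0.035 and 0.083 with the epididymis covariate, Tk1 was -0.062 by voom, and without the 4 libraries Cdk1, Rrm2 and Cdc6 were 0.017, 0.097 and 0.077. With each eWAT library left out Rrm2 ran from -0.16 to 0.11, Foxm1 from -1.08 to 0.26, Tk1 from -0.29 to 0.25, Tyms from -0.036 to 0.18, Cdc6 from -0.43 to 0.070, Cdt1 from -0.31 to 0.11, Cenpf from -1.13 to 0.021 and the testis level difference from -0.92 to 0.39. The cause was not tested. Between tissues, total-count scaling left 38 members called and turned Tyms to 0.80, Cdt1 to 0.19 and Rrm2 to 1.47, and upper-quartile scaling turned Rrm2 to 0.24. In liver depth limits the members not tested, with 46 to 130 counts in all for 10 mitosis genes and 18 to 73 for 2 S phase genes. The covariates for epididymis and the fits without liver IR 4A 3 and IR 4A 4 were added after the data were seen, as were total-count scaling and the scalings of single genes between tissues.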
